A study of Rattus norvegicus with 35 samples.

Results

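The miR-191 and miR-425 cluster is a pair of microRNA hairpins that lie side by side in the rat genome and give 4 mature miRNAs: miR-191a-5p, miR-191a-3p, miR-425-5p and miR-425-3p. The members are the 4 rows of the deposited count table with these names, out of 763 miRNA rows, and all 4 passed the filter on low counts that left 328 miRNAs for testing. The members were chosen by values of these same libraries: miR-191a-5p was higher against control at the high dose and in the low dose on day 7, while miR-191a-3p was lower at the high dose. Each contrast with control is therefore given below as a description, without a test of the members.

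Small RNA was sequenced from rat liver. The animals, Sprague-Dawley males aged 6 weeks, received a daily oral dose of ketoconazole, an azole antifungal drug known for liver toxicity. The 12 groups combine a dose with a duration: vehicle control (0.5% methylcellulose), low dose (10 mg/kg), middle dose (30 mg/kg) and high dose (100 mg/kg), each for 3, 7 or 14 days. Livers were taken 24 h after the last dose, and every group had 3 libraries except control day 14, which had 2, for 35 in all. Whole liver is a mixture of cells, so fewer cells of a type and less RNA per cell cannot be told apart.

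A miRNA hairpin is cut by Drosha and then Dicer into a short duplex of its 5p and 3p arms. One arm, the guide, is loaded into an Argonaute protein and pairs with messenger RNAs mainly through its seed, while the other arm, the passenger, is usually broken down. Mature levels of the arms of one hairpin are therefore often unequal. miR-191 and miR-425 are cut from one host transcript in mammals. miR-191-5p is an abundant miRNA of many tissues and is often used as a normaliser in quantitative PCR.

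The mature sequences and hairpins below come from RefSeq (GRCr8 build), because the arms are what the count table distinguishes. All 4 lie on chromosome 8, plus strand, inside the span of the Dalrd3 gene, and 366 bases separate the hairpins in that build. The capitals in each mature sequence mark the seed, bases 2 to 8 from the 5′ end.
miR-191a-5p: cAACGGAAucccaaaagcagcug
miR-191a-3p: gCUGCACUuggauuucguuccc
miR-425-5p: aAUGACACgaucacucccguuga
miR-425-3p: aUCGGGAAuaucguguccgcc
In the hairpins, the capitals mark the 5p arm and then the 3p arm.
Mir191: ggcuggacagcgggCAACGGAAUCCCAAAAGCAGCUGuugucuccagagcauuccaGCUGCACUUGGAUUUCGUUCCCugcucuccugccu
Mir425: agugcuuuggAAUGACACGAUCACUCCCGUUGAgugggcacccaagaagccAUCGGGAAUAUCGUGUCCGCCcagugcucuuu
The 4 seeds differ from each other. Among the 693 mature names of the sequence table, the seeds of miR-191a-5p, miR-425-5p and miR-425-3p occurred in no other miRNA, and that of miR-191a-3p was shared with miR-17-2-3p. A further row of the count table, miR-191b, lies on the minus strand, where 20 of its bases are the exact complement of miR-191a-3p. Its sequence shows that it is the antisense partner and not a second copy of miR-191a-5p, and it had 0 to 4 counts in every library.
miR-191b: gAACGAAAuccaagugcagcu

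Libraries held 2665943 to 9665416 miRNA counts (median 3758063). On log2 CPM (counts scaled for library size), the first principal component, with 46.2% of the variance, split the libraries in 2 sets with a gap between them. Middle and high dose libraries together with low dose day 7, 21 in all, scored 4.24 to 6.47. The other 14, from control rats and from low dose rats on days 3 and 14, scored -14.49 to -4.32. With no batch named in the labels, within-batch values could not be computed, and setting either upper dose against control also sets these sets against each other. So does setting low dose day 7 against control or against low dose days 3 and 14. The abundant hepatocyte miRNA miR-122-5p averaged 32406 CPM over all libraries.

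miR-191a-5p, the major arm, had the highest level of the 4. On day 3 it had 1414, 1402 and 2059 CPM in the control libraries, 1206, 2112 and 1745 CPM in the low dose, 10906, 8233 and 11925 CPM in the middle dose, and 8988, 8452 and 8697 CPM in the high dose. Control and low dose overlapped, and so did the middle and high doses, with nothing in between. On day 7 it had 1435, 997 and 979 CPM in control, 10877, 10216 and 10329 CPM in the low dose, 10495, 8453 and 8447 CPM in the middle dose, and 7434, 7518 and 7131 CPM in the high dose. All 3 low dose libraries of that day stood with the middle and high doses, and the high dose was the lowest of the 3 dosed groups without overlap. How many of all miRNAs had such a step was not counted. On day 14 it had 1662 and 1430.2 CPM in control, 1241, 1476 and 1269 CPM in the low dose, 9150.3, 9972 and 6839.6 CPM in the middle dose, and 8688, 8164 and 7966 CPM in the high dose. The low dose lay beside control there.

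**Figure D1:**
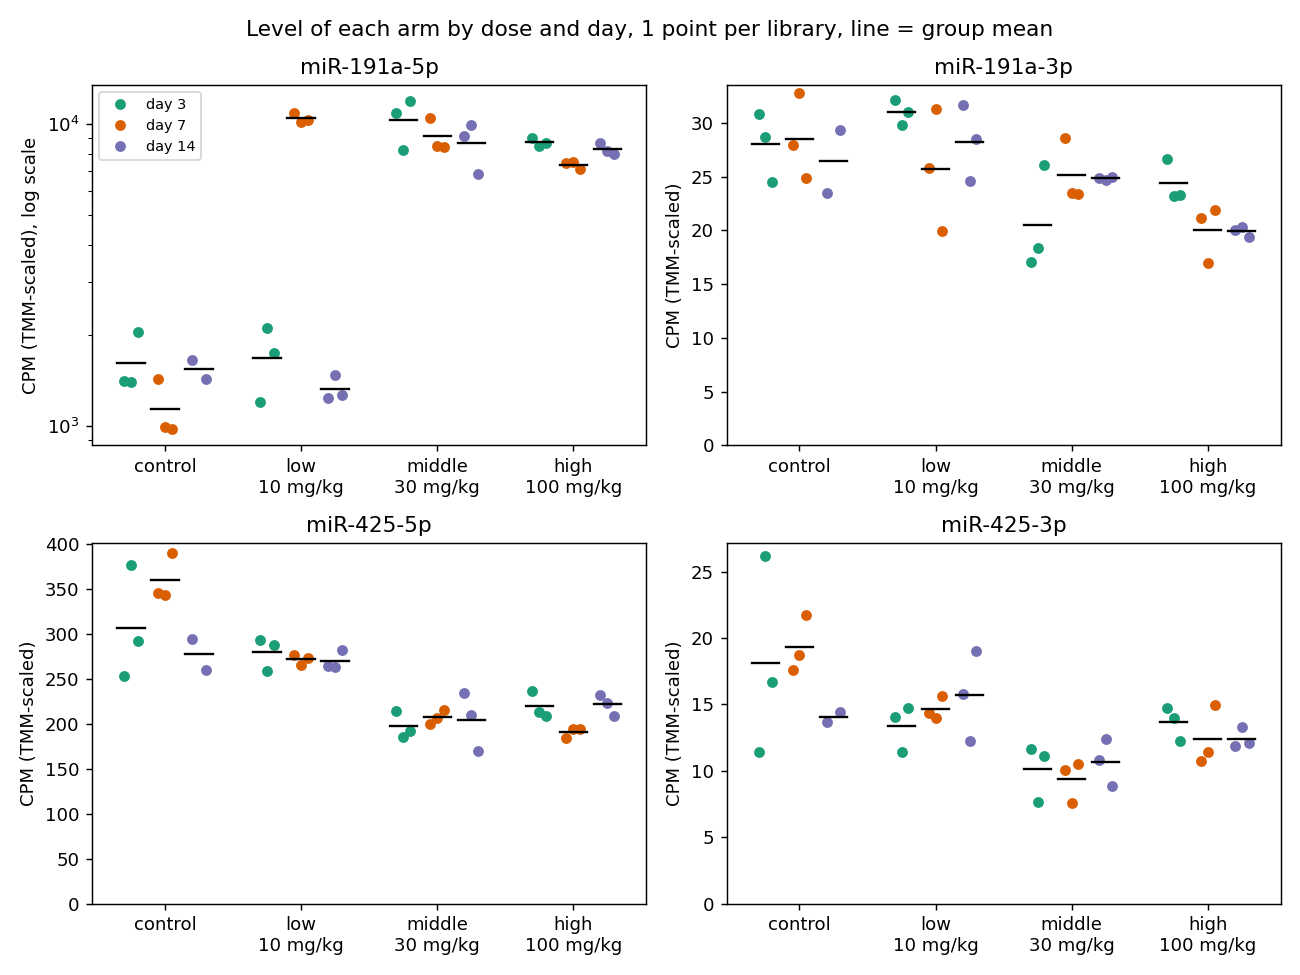
CPM (y axis, TMM-scaled, log scale for miR-191a-5p) of each arm by dose (x axis), with 1 point per library, colour for the day and a line at each group mean. miR-191a-5p forms 2 sets, 6839.6 to 11925 CPM and 979 to 2112 CPM, with low dose day 7 in the upper one; for miR-425-5p, low dose day 7 (265 to 277 CPM) stays beside the other low dose libraries.

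The group means of miR-191a-5p ran, from lowest to highest, through control day 7, low dose day 14, control day 14, control day 3 and low dose day 3 (1137 to 1688 CPM), then high dose day 7, high dose day 14, middle dose day 14, high dose day 3, middle dose day 7, middle dose day 3 and low dose day 7 (7361 to 10474 CPM). Every neighbouring pair in this order overlapped in its libraries except at 2 steps. One was the gap between low dose day 3 and high dose day 7, and the other lay between high dose day 7 and high dose day 14. How many of all miRNAs had the latter step was not counted. The lowest library of the upper set was 3.24 times the highest of the lower set. Of all 328 miRNAs, 34 (10.4%) were higher without overlap in the 21 libraries than in the 14, and 1 (0.305%) was lower without overlap, in sets that these counts themselves define. By mean CPM, miR-191a-5p ranked 21 among the 763 miRNAs in the high dose and 45 in control.

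Relative to control of the same day, miR-191a-5p at the low dose was described by a log2 fold change of 0.06 ± 0.18 (SE) on day 3, 3.20 ± 0.19 on day 7 and -0.22 ± 0.20 on day 14. The average of the low dose over days, 1.01 ± 0.11, rested on day 7, and without that day it was -0.11. At the middle dose the average was 2.72 ± 0.12, or 6.59-fold. At the high dose the average was 2.51 ± 0.11, or 5.70-fold, and the value was 2.42 ± 0.18 on day 3, 2.69 ± 0.19 on day 7 and 2.42 ± 0.22 on day 14. Over all miRNAs, 62.8% passed an adjusted p of 0.05 for the high dose against control averaged over days, and the median log2 fold change was -0.04. On day 7 the low dose against control called 45.1%, and on days 3 and 14 it called 0% in edgeR and in DESeq2, with 25 and 11 miRNAs under an unadjusted p of 0.05.

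miR-191a-3p, the arm across the stem of the same hairpin, did not form the 2 sets. Its level was 23.5, 28.3 and 32.7 CPM (lowest, median and highest library) in control, 19.9, 29.8 and 32.2 CPM in the low dose, 17.1, 24.7 and 28.6 CPM in the middle dose, and 16.9, 21.1 and 26.7 CPM in the high dose. Pooled over days, each dose overlapped with control, and every pair of groups next to each other in the order of means overlapped. Within a day, the high dose overlapped with control on day 3 (23.2 to 26.7 CPM against 24.5 to 30.8 CPM). It lay below control without overlap on day 7 (16.9 to 21.9 CPM against 24.9 to 32.7 CPM) and day 14 (19.4 to 20.3 CPM against 23.5 to 29.3 CPM). The share of all miRNAs without overlap within a day was not counted. The levels of miR-191a-3p rest on 48 to 203 counts per library, against 2771 or more for miR-191a-5p. The described log2 fold change against control, averaged over days, was 0.03 ± 0.11 at the low dose, -0.24 ± 0.11 at the middle dose and -0.37 ± 0.11 at the high dose. All 9 high dose libraries lay below the control mean of their day, the direction for which this arm was chosen.

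**Figure D2:**
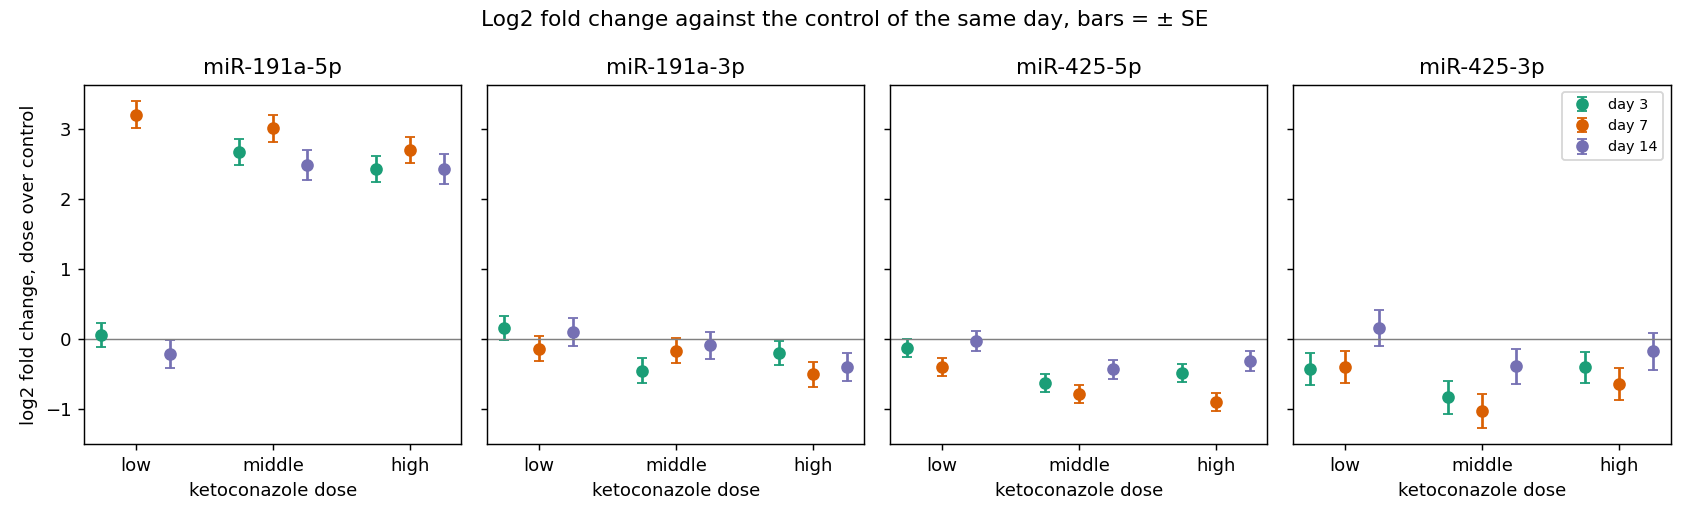
Log2 fold change of each arm over the control of the same day (y axis) for the low, middle and high dose (x axis), coloured by day, with bars of ± SE from the edgeR fit. miR-191a-5p lies between 2.42 and 3.20 in 7 of 9 points and near 0 for the low dose on days 3 and 14, while the other arms lie mostly below 0.

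The balance of the arms within a library needs no scaling between libraries. The ratio of miR-191a-5p to miR-191a-3p counts was 273 to 633 in the 21 libraries of the upper set and 30.3 to 83.6 in the other 14. This split follows in part from the choice of the members. It used miR-191a-5p in the high dose and low dose day 7, and miR-191a-3p in the high dose. The 3p arm made up 2.04 ± 0.62% of the hairpin's counts in control (SD, n = 8), 0.256 ± 0.056% in the middle dose (n = 9) and 0.264 ± 0.029% in the high dose (n = 9). In the low dose it was 0.245 ± 0.057% on day 7 (n = 3) and 2.01 ± 0.49% on days 3 and 14 (n = 6). The 5p arm outnumbered the 3p arm in every library.

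The miR-425 hairpin, the neighbour in the same host gene, gave another pattern. miR-425-5p, its major arm, had 253, 319 and 389.8 CPM (lowest, median and highest library) in control, 258, 273 and 293 CPM in the low dose, 169, 207 and 234 CPM in the middle dose, and 184, 209 and 237 CPM in the high dose. Thus all 18 middle and high dose libraries lay below all 17 low dose and control libraries, by a narrow margin of 1.07 times. Of 328 miRNAs, 3 (0.915%) were lower without overlap along this line and 2 (0.61%) were higher. As an unscaled percent of counts the margin was narrow too. It ran from 0.02494% in high dose day 3 replicate 1 to 0.02557% in control day 14 replicate 2. On day 7 the low dose libraries had 277, 265 and 273 CPM, against 346, 343 and 389.8 CPM in control. They fell on the other side from the middle dose, at 199.6, 207 and 216 CPM, and from the high dose, at 184, 194 and 195 CPM. The 3 libraries that had the highest group mean of miR-191a-5p therefore did not share the low miR-425-5p level of the middle and high doses. They lay between those doses and control of the same day, with a described log2 fold change of -0.40 ± 0.13 against that control.

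Group means of miR-425-5p ran from 191.1 CPM in high dose day 7 to 222 CPM in high dose day 14, with the middle dose groups and high dose day 3 in between, and all these neighbours overlapped. After a step without overlap came low dose days 14 and 7, control day 14, low dose day 3, control day 3 and control day 7 (269.6 to 359 CPM), again with overlap between neighbours. The described log2 fold change against control, averaged over days, was -0.19 ± 0.08 at the low dose, -0.62 ± 0.08 at the middle dose and -0.57 ± 0.08 at the high dose. It was -0.91 ± 0.13 at the high dose on day 7, where the control level was highest.

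miR-425-3p, the minor arm, was the scarcest of the 4, with 21 to 118 counts per library. It had 11.4, 17.1 and 26.2 CPM (lowest, median and highest library) in control, 11.4, 14.3 and 19.0 CPM in the low dose, 7.6, 10.5 and 12.4 CPM in the middle dose, and 10.8, 12.2 and 14.9 CPM in the high dose. The middle dose had the lowest libraries, and it overlapped with the other doses. Against control it was described by a log2 fold change of -0.23 ± 0.14 at the low dose, -0.76 ± 0.14 at the middle dose and -0.42 ± 0.14 at the high dose. The ratio of miR-425-5p to miR-425-3p counts was 12.9 to 26.7 in the 21 libraries and 14.3 to 22.4 in the 14. It did not separate them, unlike the ratio of the miR-191a arms, whose levels were used in the choice of the members.

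Between the hairpins, miR-191a-5p had 36.5 to 62.1 counts per count of miR-425-5p in the 21 libraries and 2.51 to 8.17 in the 14. This split too follows in part from the choice of miR-191a-5p for its high level. In the low dose on day 7 this ratio was 37.8 to 39.3, inside the 36.5 to 41.7 of the high dose. The ratio of the minor arms, miR-191a-3p to miR-425-3p, was 1.27 to 3.05 in the 21 libraries and 1.09 to 2.68 in the 14, and overlapped.

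**Figure D3:**
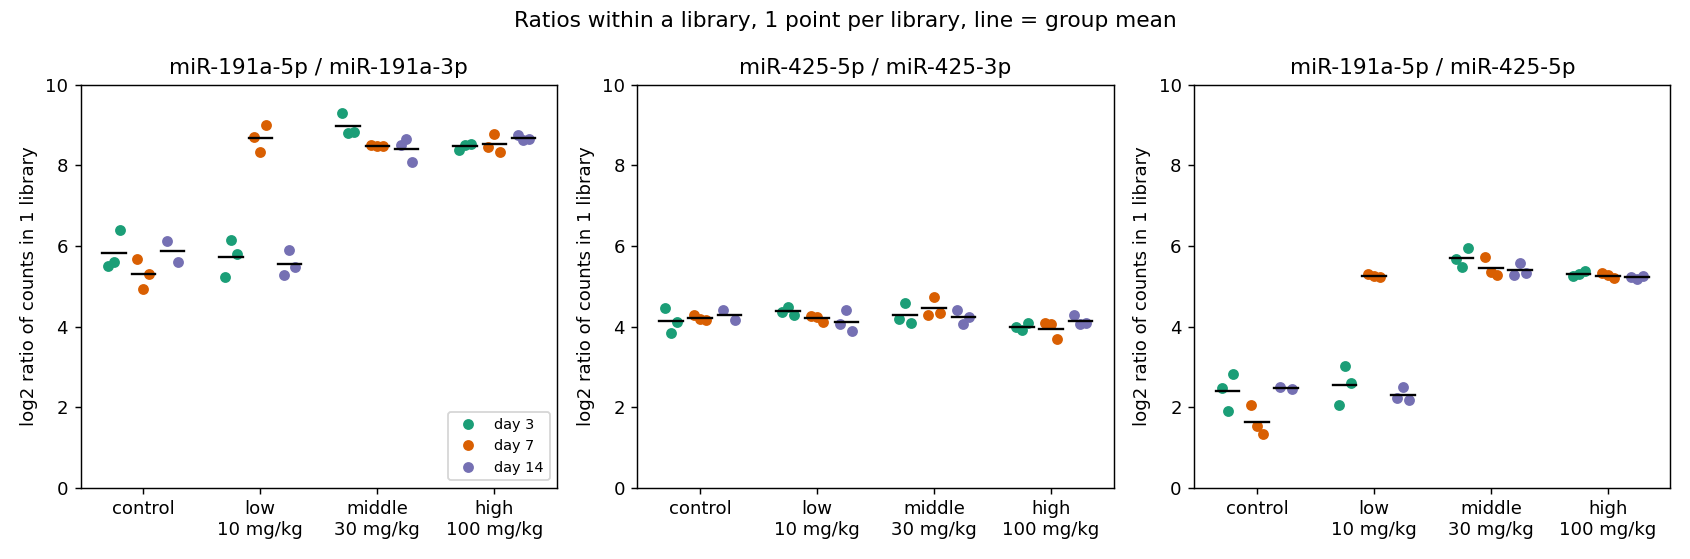
Log2 ratio of counts within a library (y axis) by dose (x axis), with 1 point per library, colour for the day and a line at each group mean. The miR-191a arm ratio and the ratio of miR-191a-5p to miR-425-5p fall into 2 separate sets (273 to 633 and 30.3 to 83.6 for the first), while the miR-425 arm ratio stays between 12.9 and 26.7 in all libraries.

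The high and middle doses were compared with edgeR's quasi-likelihood test, Benjamini-Hochberg adjusted over all 328 miRNAs. No control level enters this difference, but the choice of the members used the high dose levels of both miR-191a arms. The p-values of those arms are therefore not independent of that choice. Averaged over days, 17.4% of all miRNAs passed an adjusted p of 0.05 and 0 of the 4 arms did (2 under an unadjusted p of 0.05, 0 in DESeq2). miR-191a-5p had a log2 difference, high minus middle dose, of -0.21 ± 0.10 (95% interval -0.41 to 0.00, edgeR adjusted p = 0.137). miR-191a-3p had -0.13 ± 0.10 (interval -0.34 to 0.08). miR-425-5p had 0.05 ± 0.07 (interval -0.10 to 0.20). miR-425-3p had 0.34 ± 0.14 (interval 0.06 to 0.62, edgeR adjusted p = 0.0809), and it passed with scaling by library size alone, at 0.41. On single days the comparison called 7.01% of miRNAs on day 3, 0% on day 7 (45 under an unadjusted p of 0.05, 0 in DESeq2) and 0.915% on day 14. Those shares rest on single libraries: leaving out 1 gave 0 to 43 of all miRNAs on day 3 (23 with all libraries), with 0 without middle dose replicate 1 or 3, and 0 to 7 on day 14 (3 with all libraries). With only the libraries of day 3, 2 were called on that day. None of the 4 arms was among them in edgeR or DESeq2, or under an unadjusted p of 0.05.

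The ratios within a library were tested between the high and middle doses by an exact two-sided permutation test, with labels exchanged within each day (8000 arrangements, 9 libraries each, adjusted over 3 ratios). The choice of the members used the high dose levels of both miR-191a arms. The p-values of the ratios that hold miR-191a-5p are therefore not independent of that choice. miR-191a-5p stood at 38.5 ± 1.7 counts per count of miR-425-5p in the high dose and 46.3 ± 7.8 in the middle dose (SD, n = 9 each), a log2 difference of -0.25 (exact p = 0.00075, adjusted 0.00225). The miR-425 arm ratio was 16.4 ± 1.7 in the high dose and 20.3 ± 3.2 in the middle dose, a log2 difference of -0.30 (exact p = 0.004, adjusted 0.006). That test rests on a scarce arm: in the 2 middle dose day 14 samples sequenced in 2 runs, the 2 runs gave miR-425-3p 12.6 and 8.0 unscaled CPM in one sample and 9.4 and 5.2 in the other, and with the first run alone the log2 difference was -0.24 (adjusted exact p = 0.0855). Without day 7 it was -0.20 (adjusted exact p = 0.12). The miR-191a arm ratio was 380 ± 42 in the high dose and 406 ± 101 in the middle dose, a log2 difference of -0.07 (exact p = 0.586), and the spread within the middle dose was larger than that difference.

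On day 7, where all 3 doses differed from control over many miRNAs, the dose steps were tested in the same edgeR fit. High minus low dose called 24.1% of all miRNAs and 2 of the 4 arms (1 in DESeq2). miR-425-5p fell by 0.51 ± 0.13 on the log2 scale (edgeR adjusted p = 0.00451), with all 3 high dose libraries below all 3 low dose libraries. miR-191a-5p fell by 0.51 ± 0.18 (edgeR adjusted p = 0.0317), also without overlap. The choice of the members used the miR-191a-5p level of both groups, so this p-value is not independent of that choice. The share of all miRNAs without overlap was not counted here. The median of all miRNAs was -0.20 in this comparison. DESeq2's size factors, which moved that median by 0.155, gave -0.35 for each arm (edgeR adjusted p = 0.203 for miR-191a-5p and 0.0517 for miR-425-5p). The miR-191a-5p call was lost when any 1 of the 6 libraries was left out, with adjusted p of 0.0584 to 0.345. The miR-425-5p call was lost without high dose replicate 3, at -0.35 (edgeR adjusted p = 0.113). miR-191a-3p differed by -0.37 ± 0.18 (edgeR adjusted p = 0.125), and without low dose replicate 3 by -0.52 (edgeR adjusted p = 0.0483). miR-425-3p differed by -0.25 ± 0.23.

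Middle minus low dose on day 7 called 10.1% of miRNAs and 1 of the 4 arms (0 in DESeq2). miR-425-5p fell by 0.39 ± 0.13 on the log2 scale (edgeR adjusted p = 0.0495), with its 3 middle dose libraries all below the 3 low dose libraries. Here too, the share of all miRNAs without overlap was not counted. The call was lost when any 1 of the 6 libraries was left out (-0.41 to -0.28). miR-191a-5p differed by -0.20 ± 0.17 (interval -0.55 to 0.16) and miR-425-3p by -0.63 ± 0.24 (edgeR adjusted p = 0.0907).

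Duration within a dose was tested the same way, with the same limit for the miR-191a arms wherever the high dose enters. In the high dose, day 7 minus day 3 called 0% of miRNAs (13 under an unadjusted p of 0.05, 0 in DESeq2) and day 14 minus day 3 called 0.915%. That count for day 14, 3 miRNAs, was 22 in DESeq2, 25 with only the libraries of the groups compared and 33 with library size alone. In the middle dose the shares were 0% (22 under an unadjusted p of 0.05, 0 in DESeq2) and 4.27%. No arm passed in any of the 4 comparisons, in edgeR, in DESeq2 or under an unadjusted p of 0.05. For miR-191a-5p the differences were -0.24 ± 0.17 and -0.08 ± 0.17 in the high dose, and -0.18 ± 0.17 and -0.26 ± 0.17 in the middle dose. miR-191a-3p in the high dose differed by -0.29 ± 0.18 on day 14, and passed with library size alone as the scaling, at -0.55 (edgeR adjusted p = 0.0424). The change of the high minus middle difference with time called 0% for day 7 (16 under an unadjusted p of 0.05, 0 in DESeq2) and 0.915% for day 14. It was largest for miR-191a-3p, at -0.59 ± 0.25 and -0.57 ± 0.25, with edgeR adjusted p of 0.874 and 0.779.

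In the control livers, day 7 minus day 3 called 1.52% of miRNAs and 0 of the 4 arms in edgeR, and 0 of the 4 in DESeq2 (1 under an unadjusted p of 0.05). The 5 miRNAs called over the whole table became 1 to 62 when 1 library was left out, 62 of them without control day 7 replicate 1. They became 0 with only the libraries of these 2 groups and 15 in DESeq2. miR-191a-5p differed by -0.52 ± 0.18 (edgeR adjusted p = 0.1), and without control day 7 replicate 1, the highest of its group, by -0.81 (edgeR adjusted p = 0.00344). miR-425-5p differed the other way, by 0.23 ± 0.13 (edgeR adjusted p = 0.298). The larger day 7 values of both arms against control therefore stand against a control group at the low end of the control range for miR-191a-5p and at the high end for miR-425-5p. With control day 7 replicate 1 as the only control of its day, miR-191a-5p was 2.33 for the high dose on day 7 in place of 2.69. Day 14 minus day 3 called 0% of miRNAs (29 under an unadjusted p of 0.05, 0 in DESeq2).

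The miRNAs whose log2 CPM was most like that of miR-191a-5p over the 35 libraries were miR-28-3p (Pearson r = 0.986), miR-322-3p (0.985), miR-186-5p (0.983), miR-423-3p (0.981) and miR-361-5p (0.979). The libraries share the split in 2 sets. Within the 21 libraries r was 0.16 to 0.748 for the 5, and within the 14 it was 0.754 to 0.942. On deviations from the group means, a measure added after the data were seen, r was 0.823 for miR-28-3p, 0.837 for miR-361-5p and 0.495 for miR-322-3p. No seed was shared between miR-191a-5p and the 4 of these with a sequence in the table, shown here with seeds in capitals.
miR-28-3p: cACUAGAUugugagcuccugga
miR-322-3p: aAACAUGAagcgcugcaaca
miR-186-5p: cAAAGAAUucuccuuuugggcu
miR-361-5p: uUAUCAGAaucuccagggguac

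**Figure D4:**
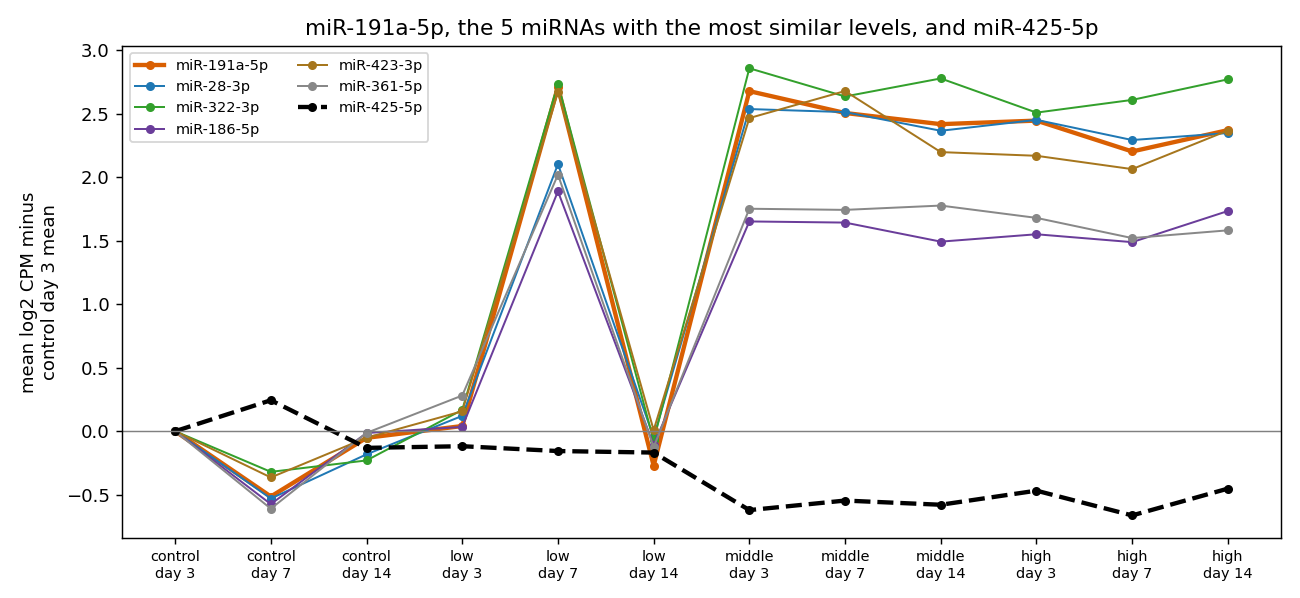
Mean log2 CPM of each of the 12 groups minus that of control day 3 (y axis) for miR-191a-5p, its 5 most similar miRNAs and miR-425-5p (dashed), groups ordered by dose and day along the x axis. The 6 solid lines are high in low dose day 7 and in all middle and high dose groups. miR-425-5p lies below its control day 3 level in every other group except control day 7. In low dose day 7 (-0.16) it stays beside low dose days 3 (-0.12) and 14 (-0.17).

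The other arms had other neighbours. miR-425-5p was most like miR-16-5p (r = 0.871 over 35 libraries), miR-23b-3p (0.856), miR-363-3p (0.823), miR-15a-5p (0.819) and miR-214-3p (0.815). miR-425-3p was most like miR-122-3p, the minor arm of the hepatocyte miRNA, at 0.71, then miR-1249 (0.696), miR-16-5p (0.695), miR-24-3p (0.693) and miR-15b-5p (0.691). On deviations from the group means, r was 0.039 to 0.447 for the neighbours of miR-425-5p and 0.235 to 0.561 for those of miR-425-3p. miR-16-5p and miR-15b-5p share a seed with each other and not with miR-425.
miR-16-5p: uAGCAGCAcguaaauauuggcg
miR-15b-5p: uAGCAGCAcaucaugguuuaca
miR-191a-3p was most like miR-152-3p (0.77), miR-676 (0.726), miR-23b-3p (0.709), miR-24-3p (0.705) and miR-210-5p (0.695), with 0.439 to 0.66 on deviations from the group means. Among the 4 arms, miR-425-5p and miR-425-3p went together, with r = 0.822 over the libraries and 0.739 on deviations from group means. The arms of miR-191a, chosen for opposite changes in the high dose, did not, with -0.594 and -0.079. Nor did miR-191a-5p and miR-425-5p, with -0.756 and 0.036.

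Because miR-191-5p is a common normaliser, it was set beside 13 miRNAs often used as references in quantitative PCR of tissue, all of which were tested. For the high dose against control averaged over days, 7 of the 13 were higher and 6 lower in edgeR at an adjusted p of 0.05, beside 62.8% of all miRNAs called, and their median log2 fold change was 0.20 against -0.04 for all miRNAs. The largest were miR-423-5p at 1.98 ± 0.13, miR-361-5p at 1.79 ± 0.15, miR-186-5p at 1.76 ± 0.12 and miR-16-5p at -1.04 ± 0.09. miR-191a-5p, at 2.51, exceeded all of them in size, but it was chosen for being high in this contrast. For the high against the middle dose, 2 of the 13 were higher, miR-103-3p by 0.32 ± 0.07 and miR-93-5p by 0.27 ± 0.08, and 1 was lower, miR-26a-5p at -0.26 ± 0.07 (edgeR adjusted p = 0.00328, 0.0153 and 0.00871), beside 17.4% of all miRNAs called and with a median of -0.01 against -0.05 for all. The summed level of the 13 was 77533 to 104463 CPM in the high dose and 80436 to 91829 CPM in control.

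**Figure D5:**
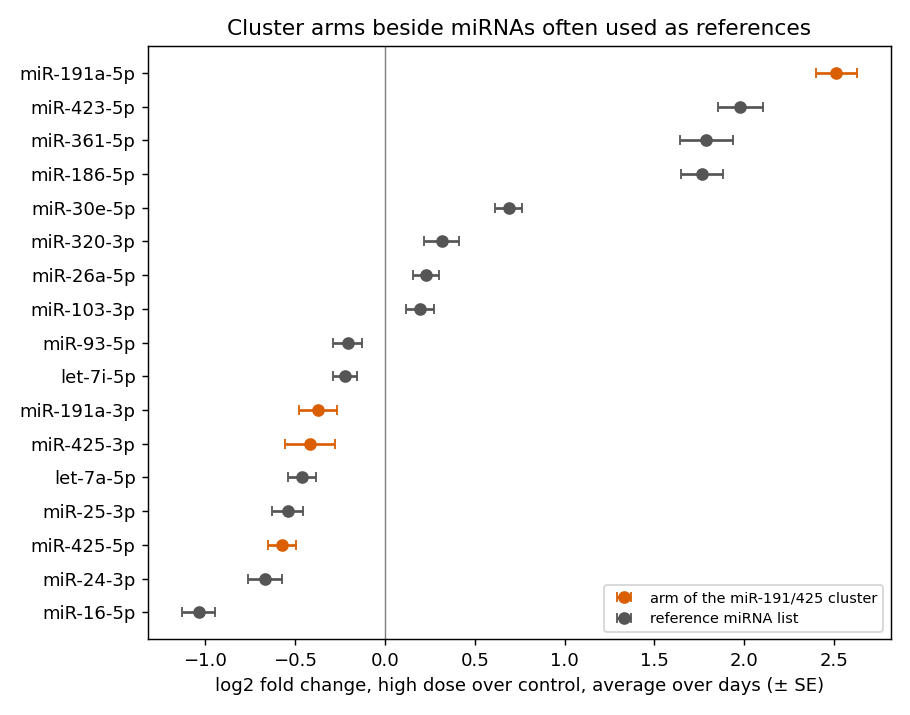
Log2 fold change of the high dose over control, averaged over days (x axis, bars of ± SE), for the 4 arms and the 13 miRNAs often used as quantitative PCR references (y axis, 1 row each). miR-191a-5p, chosen for being high in this contrast, lies at 2.51, to the right of every one of the 13, which run from -1.04 to 1.98.

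Of 26 markers of liver cell types, 18 (69.2%) were called in the same contrast, near the 62.8% of all miRNAs. Both endothelial miRNAs, the arms of miR-126a, were lower in the high dose than in control, and their summed level was 18909 to 22701 CPM in the high dose and 28706 to 37855 CPM in control, without overlap. Of 5 hepatocyte miRNAs, 1 was higher (miR-148a-3p) and 4 were lower, and their sum overlapped, at 238348 to 285775 CPM in the high dose and 225374 to 309244 CPM in control. Of 5 white blood cell miRNAs 0 were higher and 3 lower in edgeR, with sums of 1805 to 2839 CPM in the high dose and 1539 to 3127 CPM in control. Of 4 red blood cell miRNAs 1 was higher and 1 lower, with sums of 2262 to 4623 CPM in the high dose and 1521 to 4148 CPM in control. Of 5 stellate and smooth muscle miRNAs 2 were higher and 1 lower, with sums of 45925 to 60539 CPM in the high dose and 36357 to 49768 CPM in control. Of 5 epithelial miRNAs 1 was higher and 2 lower, with sums of 864 to 1638 CPM in the high dose and 939.9 to 1949.8 CPM in control. Each sum came mostly from 1 of its miRNAs and says little of the others. Examples are miR-143-3p for stellate and smooth muscle (mean 44348 CPM over all libraries) and miR-486 for red blood cells (2622 CPM). No marker was at 0, and the part of these markers in the levels of the cluster was not tested. Between the high and middle doses, where 17.4% of all miRNAs were called, 1 hepatocyte, 1 white blood cell and 1 stellate and smooth muscle miRNA were lower in edgeR, and none of the other markers passed.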

How the data were processed

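Per the labels' protocols, rat liver RNA was extracted with an RNeasy Plus Universal Mini kit and libraries used the TruSeq Small RNA kit from Illumina. The authors deposited a table of raw read counts per mature miRNA, and rn6 is the genome build per the submitters' processing notes. The aligner, the counter and the miRNA annotation were not given in the sources used here. Of 37 count columns, 4 hold 2 runs each of 2 samples, which were summed, giving 35 libraries.

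Counts were fitted in edgeR 4.0.16 (R 4.3.3) with TMM scaling (factors 0.835 to 1.118), filterByExpr (minimum count 10, total 15) and 1 mean per dose-by-day group, with 23 residual degrees of freedom. Quasi-likelihood tests were Benjamini-Hochberg adjusted over all 328 miRNAs, with a threshold of 0.05. DESeq2 1.42.0, other scalings and filters, a replicate block and leaving out each library were the alternatives. CPM use TMM-scaled library sizes, log2 CPM a prior count of 2, and ratios within a library a pseudocount of 0.5. The scarce 3p arms carry the most counting error, and read counts without molecular identifiers are not independent molecules.

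Named miRNAs were the 4 members, miR-191b, the 5 miRNAs most correlated with each member, and at most 4 per list (named by size of change among those that passed). The members and lists were chosen with earlier results of these data known. Nothing in the labels says whether replicates are separate rats, so p-values measure the spread between these libraries. No 2 libraries of a group differed by less than sampling noise (chi-square per degree of freedom 34.8 or more over 34 pairs). The 2 runs of each repeated sample also exceeded it, at 8.09 and 5.74. This measure therefore cannot show that replicates are separate rats. The scripts were tested on simulated data. Sequences came from RefSeq (GRCr8), where 686 of the 763 rows and all 4 members matched. Figures were drawn with matplotlib 3.10.9.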

Additional observations from a re-analysis of the deposited data

Results flagged for a closer look

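For miR-191a-5p, the low dose libraries of day 7 and of day 14 lay on different sides of the control mean of their day. All 3 low dose libraries of day 7 lay above the control mean of that day, with a log2 fold change of 3.20 ± 0.19. All 3 low dose libraries of day 14 lay below the control mean of that day, by 0.07 to 0.32 on the log2 scale, with a log2 fold change of -0.22 ± 0.20, whose 95% interval of -0.62 to 0.18 includes 0, and they overlapped with the control libraries. The low dose libraries of these days also lie in different sets on the first principal component. The difference between the days was not tested.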

How the results depend on the processing

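Under the alternatives, 1058 values of the main comparisons counted as unchanged, and the others are given below, with main values in brackets. Unchanged meant the same side of the threshold for tests, within the spread between replicates for averages against control, and within 1.5 times for counts. Small values could change sign and still count as unchanged. One was miR-425-5p in the middle dose for day 14 minus day 3, at -0.06 to 0.17 on leaving out 1 library. Of the values by day against control and the counts by day, 712 stayed within the spread between replicates or 1.5 times, and 69 moved further. The cause of these changes was not tested. Without day 7, miR-191a-5p in low dose against control turned to -0.11 (1.01), 37 of all miRNAs were called for high against middle dose (57), and log2 miR-425-5p/miR-425-3p for that comparison was -0.20 (-0.30), not passing. Its value was -0.24 with run 1 alone. With library size alone, miR-425-5p in middle dose against control was -0.77 (-0.62), while miR-425-3p for high against middle dose passed at 0.41 (0.34), as it did with run 2 alone at 0.43, and miR-191a-3p in the high dose for day 14 minus day 3 passed at -0.55 (-0.29). For high minus low dose on day 7, miR-191a-5p (-0.51) did not pass with no filter (-0.27), only day 7 libraries (-0.41), the CPM filter of 10 in 3 libraries (-0.41), DESeq2's size factors or DESeq2 (-0.35 each) or library size alone (-0.48), and miR-425-5p (-0.51) did not pass with no filter (-0.27) or size factors (-0.35). For middle minus low dose on day 7, miR-425-5p (-0.39) did not pass with no filter (-0.28), DESeq2 or its size factors (-0.30 each), only day 7 libraries (-0.38) or the CPM filter (-0.32). With no filter, 45 of all miRNAs were called for high minus low dose on day 7 (79) and 20 for middle minus low dose (33), which was 19 with only day 7 libraries.

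Leaving out 1 library, high minus low dose on day 7 ranged from -0.53 to -0.31 for miR-191a-5p, from -0.52 to -0.20 for miR-191a-3p and from -0.53 to -0.35 for miR-425-5p, and called 49 to 67 of all miRNAs, with the lowest count without high dose replicate 3. Middle minus low dose ranged from -0.41 to -0.28 for miR-425-5p and called 13 to 41 of all miRNAs, with the lowest count without middle dose replicate 3. Control day 7 minus day 3 ranged from -0.81 to -0.35 for miR-191a-5p.

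The replicate numbers give no pairing: same-numbered libraries of a day correlated at -0.302 to 0.213 in their deviations from group means. With the replicate block, miR-425-5p for middle minus low dose on day 7 was -0.39 (edgeR adjusted p = 0.072), and the block changed no other call of the arms. Adding miR-191b to miR-191a was not run, since it is the antisense sequence.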
